A study of Rattus norvegicus with 4 samples.

Results

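The insulin receptor pathway and its FOXO transcription factors were examined in rat liver through 9 genes chosen by symbol, *Insr*, *Irs1*, *Irs2*, *Pik3r1*, *Pdpk1*, *Akt1*, *Akt2*, *Foxo1*, and *Foxo3*. All 9 genes were found, among 16992 annotated genes, with 1 row each per library. The rats were wild-type males of the Wistar strain, purchased at 6 weeks of age and acclimatized for at least 1 week. A library of liver RNA (left lateral lobe) was made per rat, and the 4 rats each stand for 1 condition. The conditions were 4.5% sevoflurane for 6 hours, 6% desflurane for 6 hours, and for each agent a control liver taken upon loss of consciousness, after less than 1 minute of the same agent at the same concentration. Both agents are halogenated ethers used for inhalational anesthesia. All rats, controls included, had been without food and water for 2 hours before anesthesia, were exposed to 50% oxygen, and were sacrificed at about 3 PM. The 6 hour rats were therefore away from food for longer than the controls. In this design the time under anesthesia and the time without food cannot be told apart. A difference between the agents cannot be told apart from one between single rats. Since each condition has a single library, there is no replicate error to set a difference against, and no test was made.

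As background, insulin binds the receptor encoded by *Insr*, which phosphorylates the docking proteins encoded by *Irs1* and *Irs2*. These recruit PI3-kinase, whose regulatory subunit p85 alpha is encoded by *Pik3r1*, and the lipid that it forms brings PDK1, encoded by *Pdpk1*, and the AKT kinases together at the membrane. Active AKT phosphorylates FOXO proteins and keeps them out of the nucleus. When insulin is low, nuclear FOXO in hepatocytes drives genes such as *Igfbp1* and *G6pc*, and also *Irs2* and *Insr* themselves, whereas *Srebf1* is raised by insulin. The pathway acts largely through phosphorylation, which RNA sequencing does not measure.

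Levels are given as TPM, a StringTie measure adjusted for transcript length and library size, so that levels can be compared between genes as well as between libraries. The aligned sequence derived from the files was between 4.47 and 5.40 Gb per library. The average coverage of the 9 genes was between 11.9, for *Irs2* after 6 hours of sevoflurane, and 168, for *Pik3r1* in the desflurane control, and no read counts entered the calculations. A gene was called upregulated or downregulated when the larger of the compared TPM values was above 2 and more than 2-fold the smaller. In all 4 libraries each of the 9 genes was above 2 TPM. The 9136 genes above this limit in every library shifted by a median log2 of 0.05 under sevoflurane and of 0.12 under desflurane, so that changes with desflurane are also given after median-of-ratios scaling, which sets this shift to about 0. Hepatocyte markers were abundant in all libraries labeled as liver, and *Alb* (albumin) was between 77519 and 92912 TPM. Levels in whole tissue cannot tell fewer cells of a type from less RNA per cell.

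In order of mean TPM over the 4 libraries, *Pik3r1* was the most abundant of the 9 genes (81.0), followed by *Akt2* (57.6), *Insr* (44.6), *Akt1* (41.8), *Foxo1* (33.9), *Irs1* (32.6), *Pdpk1* (28.5), *Foxo3* (21.3), and *Irs2* (11.3). The neighbors *Insr* and *Akt1* changed places between libraries, as did *Foxo1* and *Irs1* and *Irs1* and *Pdpk1*, and their order is not resolved by these data. The 2 control livers were close to each other, and none of the 9 genes differed between them by more than the 17.2% by which *Irs2* was lower in the desflurane control. The median absolute log2 difference between the controls, with 1 added to each TPM value, was 0.06 for the 9 genes and 0.14 for the 9756 genes with a TPM value higher than 2 in either control.

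**Figure D1:**
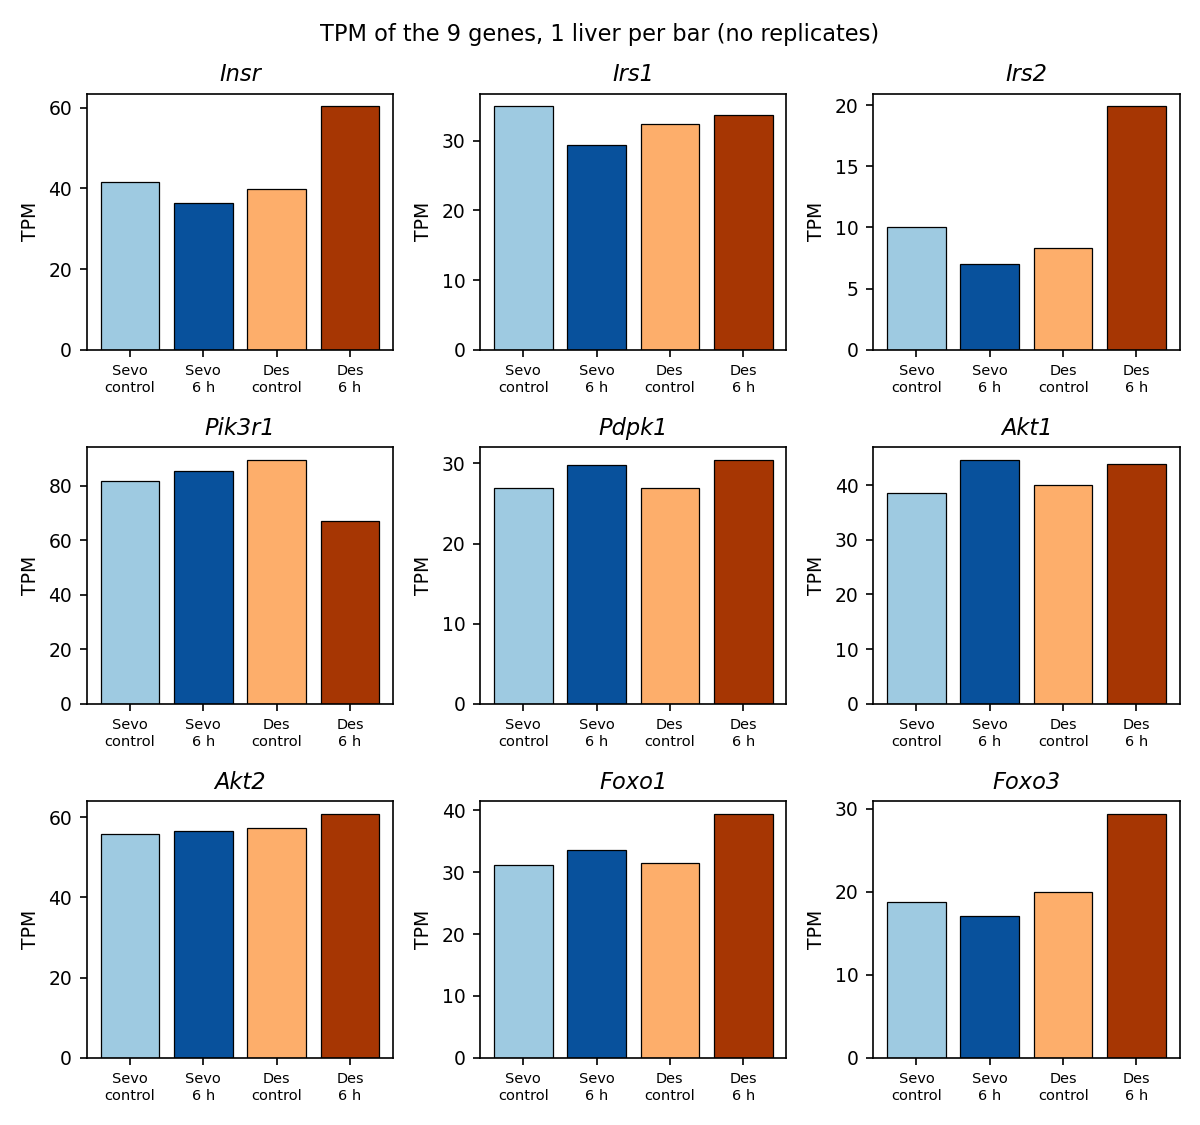
TPM (vertical axis of each panel, starting at 0) of the 9 genes in the sevoflurane control, 6 hour sevoflurane, desflurane control, and 6 hour desflurane livers, with 1 liver per bar and no error bars because there are no replicates. The 6 hour desflurane bar is the highest for *Insr*, *Irs2*, *Pdpk1*, *Akt2*, *Foxo1*, and *Foxo3* and the lowest for *Pik3r1*. The *Akt2* bars all lie between 55.7 and 60.9.

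*Insr*, on the minus strand of chromosome 12 (rn6, chr12:1682527-1816414), had TPM values of 41.5 (control) and 36.5 (6 hours) with sevoflurane and 39.9 (control) and 60.5 (6 hours) with desflurane. The desflurane liver was the highest and the sevoflurane liver the lowest, with both controls between them. *Insr* was 1.52-fold higher with desflurane than in its own control and 1.46-fold higher than in the sevoflurane control, which is below the 2-fold limit. After median-of-ratios scaling the increase over its own control was 1.39-fold. With sevoflurane, *Insr* was 12.05% lower than in its own control and 8.48% lower than in the other control. Compared directly after 6 hours, *Insr* was 1.66-fold higher with desflurane than with sevoflurane, a ratio exceeded by 3.92% of the 9340 genes above 2 TPM in both livers.

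The promoter of *Insr* is shown because FOXO proteins are known to activate this gene and the files give its level beside that of other FOXO targets. The table of RefSeq promoters used here, on build GRCr8, held 7 of the 9 genes, and *Irs2* and *Foxo3* were not matched. The 250 bases before the annotated start were searched on both strands for the FOXO core GTAAACA and for CAAAACA and CAAAATA, which are found in insulin response elements. *Insr* was the only 1 of the 7 genes to hold any of these 3 motifs, and 12.3% of the 33469 promoters in the table hold at least 1 of them. GTAAACA, which 3.21% of promoters hold, occurs once in *Insr*, in its reverse complement, with its first base 100 bases before the start. The same search in *Igfbp1*, the gene in which the insulin response element is best known, found CAAAACA and CAAAATA within 18 bases, and *G6pc1*, the current symbol of *G6pc*, held CAAAACA once. *Pck1*, *Ppargc1a*, *Klf15*, *Irs3*, and *Trib3*, which were searched as well, held 0 of the 3 motifs in these 250 bases. Elements farther from the start were not searched for in any gene. CAAAACA and CAAAATA are held by 5.46% and 4.46% of promoters. A match of letters is a description and shows neither binding nor activity. The lines below read 5′ to 3′ on the strand of the gene, with the motifs in capitals. They cover 250 bases before the start of *Insr* (GRCr8 chr12:6128804-6129053, minus strand), 60 bases of *Igfbp1* (chr14:86261127-86261186, plus strand), and 60 bases of *G6pc1* (chr10:86807443-86807502, plus strand).
Insr: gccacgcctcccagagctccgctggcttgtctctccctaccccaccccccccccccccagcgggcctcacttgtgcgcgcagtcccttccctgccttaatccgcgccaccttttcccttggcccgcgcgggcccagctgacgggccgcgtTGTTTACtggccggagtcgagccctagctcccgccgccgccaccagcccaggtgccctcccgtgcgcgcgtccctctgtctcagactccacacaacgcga
Igfbp1: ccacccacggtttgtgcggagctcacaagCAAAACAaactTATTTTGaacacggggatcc
G6pc1: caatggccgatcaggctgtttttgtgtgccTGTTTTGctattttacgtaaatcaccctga

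*Irs2* was the only one of the 9 genes that passed the 2-fold limit. This gene, on the plus strand of chromosome 16 (rn6, chr16:83824515-83848569), encodes the receptor substrate whose expression in liver is known to be restrained by insulin. Its TPM values were 10.1 (control) and 7.01 (6 hours) with sevoflurane and 8.34 (control) and 19.95 (6 hours) with desflurane. The desflurane liver was the highest by a wide margin, and the sevoflurane liver was the lowest. With desflurane, *Irs2* was upregulated 2.39-fold (log2 change 1.26), with the coverage of the gene at 33.6 against 15.6 in the control. In this comparison, 2.79% of the 9855 genes with a TPM value higher than 2 in either library were upregulated, and the increase of *Irs2* ranked 98 among the 9412 genes above 2 TPM in both (1.03% of these had a larger one). When the sevoflurane control was used instead, the increase was 1.98-fold and *Irs2* no longer passed the limit. After median-of-ratios scaling the increase was 2.19-fold over its own control and 1.84-fold over the sevoflurane control. With sevoflurane, *Irs2* was 1.44-fold lower than in its own control and 1.19-fold lower than in the other control, and neither value passed the limit. After 6 hours, *Irs2* was 2.85-fold higher with desflurane than with sevoflurane. This was the 25th largest of 9340 ratios, in a comparison in which 2.76% of the 9829 genes above 2 TPM in either library were higher by more than 2-fold.

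*Irs1* (rn6, chr9:88033668-88086488, minus strand), which encodes the other main receptor substrate of hepatocytes, had TPM values of 35.0, 29.4, 32.3, and 33.7 in the order sevoflurane control, 6 hour sevoflurane, desflurane control, and 6 hour desflurane. The sevoflurane liver was the lowest, and the desflurane liver was between the controls. *Irs1* was 15.9% lower with sevoflurane and 4.25% higher with desflurane than in the respective controls, and with desflurane its direction was reversed by the other control, by median-of-ratios scaling, by FPKM, and by the assembled row described below. The *Irs1* to *Irs2* ratio of TPM values was 3.48, 4.20, and 3.88 in the first 3 libraries and 1.69 after 6 hours of desflurane. The sum of both substrates was 45.1, 36.5, 40.7, and 53.7 TPM in the same order.

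*Pik3r1* (rn6, chr2:31746365-31816385, minus strand) was the only one of the 9 genes to be lower with desflurane than in its own control. Its TPM values were 81.8 (control) and 85.4 (6 hours) with sevoflurane and 89.6 (control) and 67.0 (6 hours) with desflurane. The desflurane liver was below both controls, and the sevoflurane liver lay between them. *Pik3r1* was 25.2% lower with desflurane than in its own control, 18.1% lower than in the other control, and 31.5% lower than in its own control after median-of-ratios scaling. The 2-fold limit was not passed in either comparison. *Pik3ca*, which encodes a catalytic subunit that p85 alpha binds, had TPM values of 11.3, 12.4, 12.03, and 13.5, and the *Pik3r1* to *Pik3ca* ratio was 7.23, 6.91, 7.45, and 4.95 in the order given above. The decrease of *Pik3r1* depended on which row of the files was read, as described below.

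The kinases downstream of PI3-kinase were the most even part of the pathway. *Pdpk1* (rn6, chr10:13451624-13515442, minus strand) had TPM values of 26.9, 29.8, 26.9, and 30.5 in the same order, and both 6 hour livers were above both controls, by 10.5% to 13.4% depending on the control. *Akt1* (rn6, chr6:137219131-137236201, minus strand) had TPM values of 38.6, 44.6, 40.0, and 43.8. Both 6 hour livers were again above both controls, with an increase of 15.8% for sevoflurane and 9.63% for desflurane over the respective controls. *Akt2* (rn6, chr1:84411726-84450162, plus strand), the AKT gene most closely tied to insulin action in liver, had TPM values of 55.7, 56.5, 57.3, and 60.9, and its highest value was 1.09-fold its lowest. The changes of *Akt2* were 1.35% with sevoflurane and 6.24% with desflurane over the respective controls, and after median-of-ratios scaling both 6 hour levels were slightly below their own controls. The increase of *Akt1* with desflurane was 1.004-fold after this scaling, and that of *Pdpk1* was 1.04-fold.

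Both FOXO genes were higher with desflurane. *Foxo3* (rn6, chr20:46428078-46519156, plus strand) had TPM values of 18.8 (control) and 17.0 (6 hours) with sevoflurane and 20.03 (control) and 29.4 (6 hours) with desflurane. The desflurane liver was the highest and the sevoflurane liver the lowest, as for *Insr* and *Irs2*. *Foxo3* was 1.47-fold higher with desflurane than in its own control, 1.57-fold higher than in the other control, and 1.34-fold higher than in its own control after median-of-ratios scaling. With sevoflurane it was 9.19% lower than in its own control and 14.9% lower than in the other control. *Foxo1* (rn6, chr2:141451234-141527016, plus strand), which encodes the main insulin-regulated FOXO protein of the liver, had TPM values of 31.2, 33.5, 31.4, and 39.4 in the same order. Both 6 hour livers were above both controls, with increases of 7.55% for sevoflurane and 25.6% for desflurane over the respective controls. After median-of-ratios scaling these were 1.04-fold and 1.15-fold. The *Foxo1* to *Foxo3* ratio was 1.66, 1.97, 1.57, and 1.34.

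**Figure D2:**
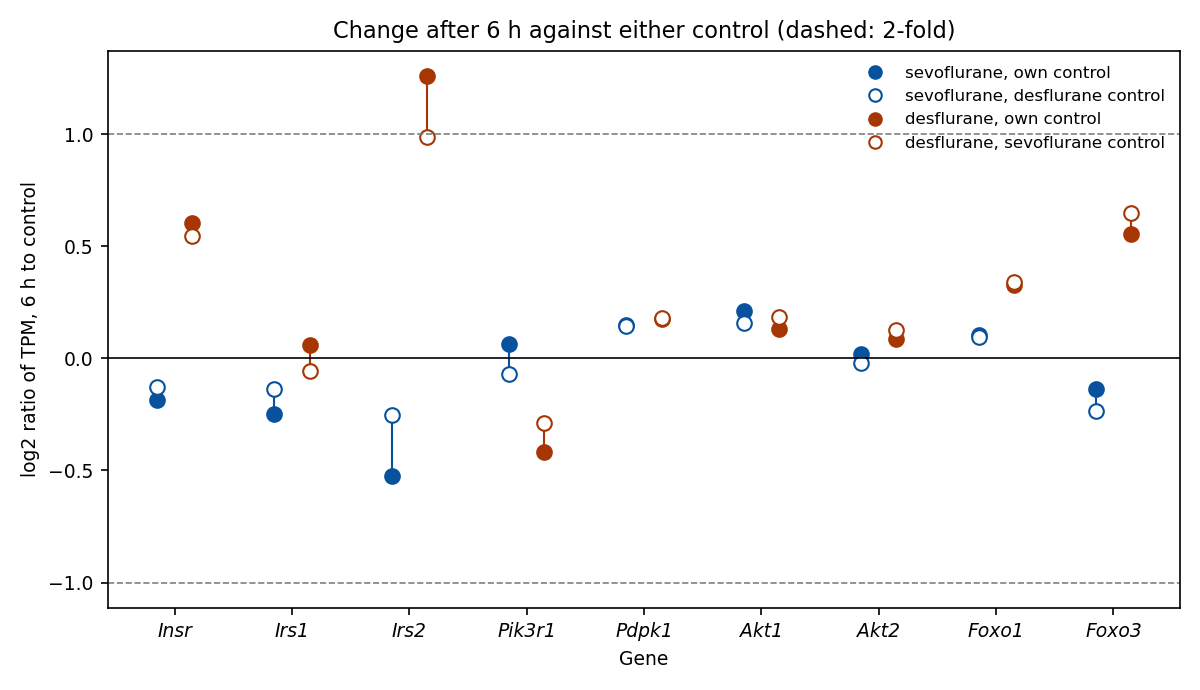
Log2 ratio of TPM after 6 hours to control (vertical axis) for each of the 9 genes (horizontal axis), with sevoflurane in blue and desflurane in brown, the own control as a filled circle, and the control of the other agent as an open circle. Dashed lines mark the 2-fold limit, which only *Irs2* with desflurane against its own control passed, and *Insr*, *Irs2*, and *Foxo3* lie above 0 with desflurane and below 0 with sevoflurane for both controls.

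Among the 9 genes, sevoflurane upregulated 0 and downregulated 0 under the TPM and fold limits, in a comparison in which 2.23% of genes were upregulated and 3.3% downregulated. Desflurane upregulated 1 and downregulated 0, in a comparison with 2.79% of genes upregulated and 1.48% downregulated. With the controls exchanged, 0 members passed with either agent, beside 2.52% of genes upregulated and 2.59% downregulated with sevoflurane and 2.84% and 1.58% with desflurane. Between the controls no member passed, against 1.17% of genes in each direction. With a fold limit of 1.5, desflurane upregulated 2 of the 9 genes, *Insr* and *Irs2*, compared with 10.4% of all genes, and downregulated none (4.25%), and sevoflurane upregulated none (8.03% of all genes) and downregulated none (8.08%). *Foxo3* was just outside this limit. Compared directly after 6 hours, *Insr*, *Irs2*, and *Foxo3* were higher with desflurane than with sevoflurane by more than 1.5-fold, as were 8.98% of all genes, and none of the 9 genes was lower by more than 2-fold (1.17% of all genes). The 9 genes had a median log2 change of 0.02 for sevoflurane, beside 0.05 for the 9754 genes above 2 TPM in either library, and 0.17 with desflurane, beside 0.11 for the corresponding 9855 genes. After median-of-ratios scaling the median of the 9 genes with desflurane was 0.05. With desflurane 8 of the 9 genes were higher than in the respective control, and with sevoflurane 5 were higher and 4 were lower. These directions stand beside medians of all genes that were themselves positive with both agents. After median-of-ratios scaling *Irs1* and *Akt2* were also lower with desflurane, and *Akt2* was also lower with sevoflurane.

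The position of each 6 hour liver relative to both controls does not depend on the choice of control. In *Insr*, *Irs2*, and *Foxo3* the desflurane liver was above both controls and the sevoflurane liver below both. This pattern was found in 3 of the 9 genes and in 11.2% of the 9993 genes with a TPM value higher than 2 in any library. In *Foxo1*, *Akt1*, and *Pdpk1* both 6 hour livers were above both controls, as in 33.3% of all genes, and no member had both below, a pattern of 13.3% of all genes. None had the desflurane liver below and the sevoflurane liver above both controls, which 5.82% of all genes did. These positions are those of the annotated rows, and *Irs1* and *Pik3r1* had other positions in the assembled rows described below. The agents were not tested against each other, since each has 1 library per state.

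For each of the 9 genes the files also held a row that StringTie assembled on the same strand without an annotated name, which covered the annotated gene completely and in most cases reached beyond it. These rows come from the same reads and are another way of drawing the gene, and they were examined after the values of the annotated rows were seen. The TPM value of the assembled row was between 0.646 and 1.30 times that of the annotated row, and 11 of the 36 pairs were within 1%. The assembled *Irs2* row had the same ends and the same values as the annotated one, so that the *Irs2* increase was unchanged. The assembled *Insr* row reached between 3901 and 4076 bp past the annotated 3′ end and had TPM values of 49.0, 40.7, 47.3, and 70.3 in the order sevoflurane control, 6 hour sevoflurane, desflurane control, and 6 hour desflurane. The increase of *Insr* with desflurane was 1.49-fold in these rows, close to the value from the annotated row.

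*Pik3r1* was different. Its assembled row began between 10494 and 10582 bp upstream of the annotated start, reached at least 4005 bp past the annotated 3′ end, and had TPM values of 55.3, 60.8, 57.9, and 53.5. The decrease with desflurane was 7.57% in these rows, compared with 25.2% in the annotated row. The annotated *Pik3r1* levels in the 6 hour desflurane liver and its control stood farther apart than those of the wider transcript, and the level of *Pik3r1* relative to the other genes also depends on this choice. The assembled *Foxo3* rows gave TPM values of 24.3, 16.2, 22.8, and 33.1, with an increase of 1.45-fold with desflurane and a decrease of 33.6% with sevoflurane. Their 3′ ends were 3906 bp past the annotated end in the sevoflurane libraries and at the annotated end in the desflurane libraries, so that the assembled *Foxo3* rows do not cover the same bases in all libraries. The assembled *Foxo1* row of the 6 hour sevoflurane liver likewise reached 3769 bp past the annotated end, which those of the other 3 libraries did not. In the assembled rows *Insr*, *Irs2*, and *Foxo3* kept their positions relative to both controls, whereas *Irs1* and *Pik3r1* did not. The assembled *Irs1* row was below both controls in both 6 hour livers. The assembled *Pik3r1* row was above both controls with sevoflurane and below both with desflurane.

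**Figure D3:**
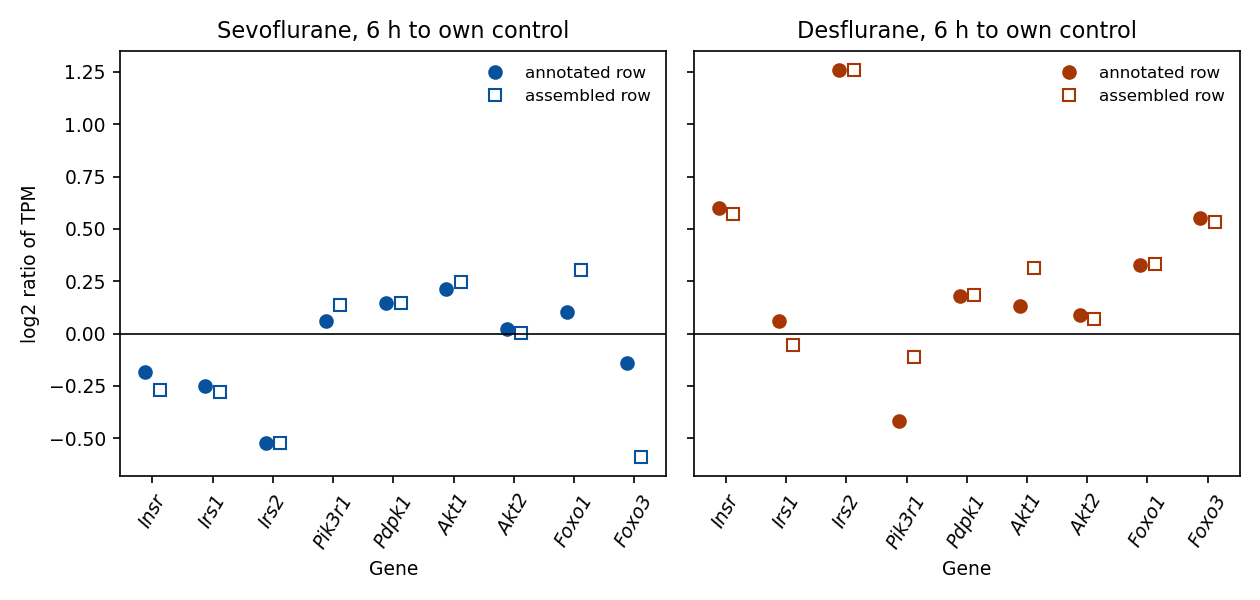
Log2 ratio of TPM after 6 hours to the own control (vertical axis) for the 9 genes (horizontal axis), from the annotated row (filled circles) and from the assembled row of the same strand (open squares), with sevoflurane on the left and desflurane on the right. The rows give the same ratio for *Irs2*, whereas *Pik3r1* with desflurane moves from -0.42 to -0.11 and *Foxo3* with sevoflurane from -0.14 to -0.59.

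The rest of the signaling pathway was examined through 9 lists by role, which held 73 symbols including the 9 genes, and 68 of these were found. With sevoflurane 1 of the 68 genes was upregulated and 2 were downregulated, and with desflurane 2 were upregulated and 2 were downregulated. As shares of the 62 and 64 genes above 2 TPM in either library, these were 1.61% and 3.23% with sevoflurane and 3.13% and 3.13% with desflurane, near the shares of all genes given above. Their median log2 changes were -0.02 under sevoflurane and 0.13 under desflurane. Most members were thus close to the controls. *Ptprf*, the most abundant of the receptor level inhibitors and a receptor tyrosine phosphatase, had TPM values of 95.2, 66.9, 118, and 78.5 in the order sevoflurane control, 6 hour sevoflurane, desflurane control, and 6 hour desflurane. *Inpp4a*, the most abundant phosphoinositide phosphatase of those reported here, had 11.3, 13.2, 13.0, and 17.7. *Crk*, *Ppp2r1a*, and *Rheb*, the most abundant of the adaptors, AKT inhibitors, and mTORC1 branch genes, differed from the respective controls by less than 1.5-fold with either agent.

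The called genes outside the 9 members were the same 3 for both agents. *Trib3*, which encodes a pseudokinase that binds AKT, had TPM values of 3.79, 14.9, 4.31, and 9.69 in the order given above, an upregulation of 3.93-fold with sevoflurane and 2.25-fold with desflurane, and both 6 hour livers were far above both controls. *Socs3*, a feedback inhibitor that also acts on insulin receptor signaling, had 15.2, 3.74, 24.2, and 9.76 TPM, a downregulation of 4.06-fold with sevoflurane and 2.48-fold with desflurane. With the sevoflurane control, *Socs3* was 1.55-fold lower with desflurane and did not pass. *Irs3*, a receptor substrate of rodents, had 2.05, 0.257, 2.51, and 0.623 TPM, so that its controls were just above the limit of 2 TPM and it was 7.97-fold lower with sevoflurane and 4.03-fold lower with desflurane. *Foxo4*, named after its values were seen, had 6.13, 4.11, 4.04, and 6.52 TPM, and its controls differed from each other by 1.52-fold, close to its 1.61-fold increase with desflurane.

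Genes that are known to respond to the pathway were grouped in 2 further lists. Of 18 genes known to rise with FOXO activity or low insulin, desflurane upregulated 5 (*Igfbp1*, *G6pc*, *Pck1*, *Ppargc1a*, and *Klf15*) and downregulated 0, with a median log2 change of 0.35 and 14 genes higher. Sevoflurane upregulated 1 of the 18, *Igfbp1*, and downregulated 2, *Cited2* and *Bcl6*, with a median of -0.12. These counts stand beside 2.79% upregulated and 1.48% downregulated of all genes with desflurane, and 2.23% and 3.3% with sevoflurane. *Igfbp1*, a secreted binding protein of insulin-like growth factors, had TPM values of 35.1 (control) and 74.7 (6 hours) with sevoflurane and 7.94 (control) and 136 (6 hours) with desflurane. *G6pc*, the last enzyme of glucose output, had 206, 223, 114, and 554 TPM, and *Ppargc1a*, a coactivator of gluconeogenic genes, had 4.23, 5.08, 2.90, and 13.5 TPM. In these 3 genes the desflurane liver was above both controls by more than 2-fold. *Pck1*, an enzyme of gluconeogenesis, had 1079, 980, 414, and 951 TPM, and *Klf15* had 61.3, 60.5, 31.7, and 66.6 TPM. For *Pck1* and *Klf15* only the desflurane control stood apart, and the other 3 livers were similar. *Apoc3*, the most abundant gene of the list, differed by less than 1.1-fold from the respective controls.

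Of 11 genes known to rise with insulin or feeding, desflurane downregulated 3 (*Srebf1*, *Scd*, and *Pnpla3*) and sevoflurane downregulated 1 (*Pnpla3*), and neither upregulated any under the TPM and fold limits. Among all genes, 1.48% were downregulated and 2.79% upregulated with desflurane, and 3.3% and 2.23% with sevoflurane. The median log2 changes were 0.0012 with desflurane and 0.23 with sevoflurane. *Srebf1*, the transcription factor gene of fatty acid synthesis, had 136, 69.5, 181, and 74.3 TPM in the order given above, and both 6 hour livers were below both controls. It was 2.43-fold lower with desflurane and 1.96-fold lower with sevoflurane than in the respective controls, the latter just short of the limit. *Scd*, a fatty acid desaturase, had 567, 605, 789, and 389 TPM, and *Pnpla3*, a lipid droplet protein, had 2.74, 1.02, 11.7, and 2.29 TPM. *Thrsp*, the most abundant gene of the list, had 717, 623, 694, and 738 TPM. *Fasn*, *Acaca*, and *Acly* are enzymes of fatty acid synthesis named after their values were seen. *Fasn* and *Acaca* were between 1.17-fold and 1.96-fold higher than in the respective controls with both agents. *Acly* was 1.82-fold higher with sevoflurane and level with its control with desflurane (1.001-fold).

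Several response genes differed more than 2-fold between the controls, whereas none of the 9 pathway genes did. The desflurane control had 4.29-fold more *Pnpla3* than the sevoflurane control, and *Igfbp1*, *Pck1*, and *Bcl6* were 4.42-fold, 2.61-fold, and 8.64-fold lower in it. *Gadd45a*, the other called gene of the 18, went the other way, with 22.1 TPM in the desflurane control and 8.31 TPM in the sevoflurane control, or 2.66-fold more. Of the 18 FOXO and low insulin genes, 13 were lower in the desflurane control (median log2 difference -0.26), and of the 11 insulin and feeding genes 9 were higher (0.41). Between the controls 1.17% of all genes passed in each direction. With the sevoflurane control, desflurane upregulated 3 of the 18 genes (*Igfbp1*, *G6pc*, and *Ppargc1a*) and downregulated 1, *Bcl6*, beside 2.84% and 1.58% of all genes. Of the 11 genes it downregulated 0 and upregulated 0, so that the 3 calls of that list were not made with this control. With the desflurane control, sevoflurane upregulated 3 of the 18 genes (*Igfbp1*, *Pck1*, and *Bcl6*) and downregulated 2 of them, *Pdk4* (2.68-fold) and *Ccng2* (2.34-fold). Of the 11 it downregulated *Srebf1*, *Pnpla3*, and *Gpam*. Here 2.52% of all genes were upregulated and 2.59% downregulated. After median-of-ratios scaling, desflurane upregulated 4 of the 18 genes and downregulated 3 of the 11 against its own control, and the median log2 change of the 11 was -0.12. With the same scaling, sevoflurane upregulated 1 and downregulated 2 of the 18 against its own control. It downregulated 2 of the 11, with a median of 0.18. After 6 hours the desflurane liver had more *G6pc*, *Ppargc1a*, *Pdk4*, and *Ccng2* than the sevoflurane liver by more than 2-fold, whereas *Igfbp1* was 1.83-fold higher and did not pass. Between these livers 2.76% of all genes were higher with desflurane by more than 2-fold. Of the 11 insulin and feeding genes, *Pnpla3* was called in this comparison, 2.24-fold higher with desflurane. Whether the difference between the controls takes part in the changes of the 9 genes was not tested.

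**Figure D4:**
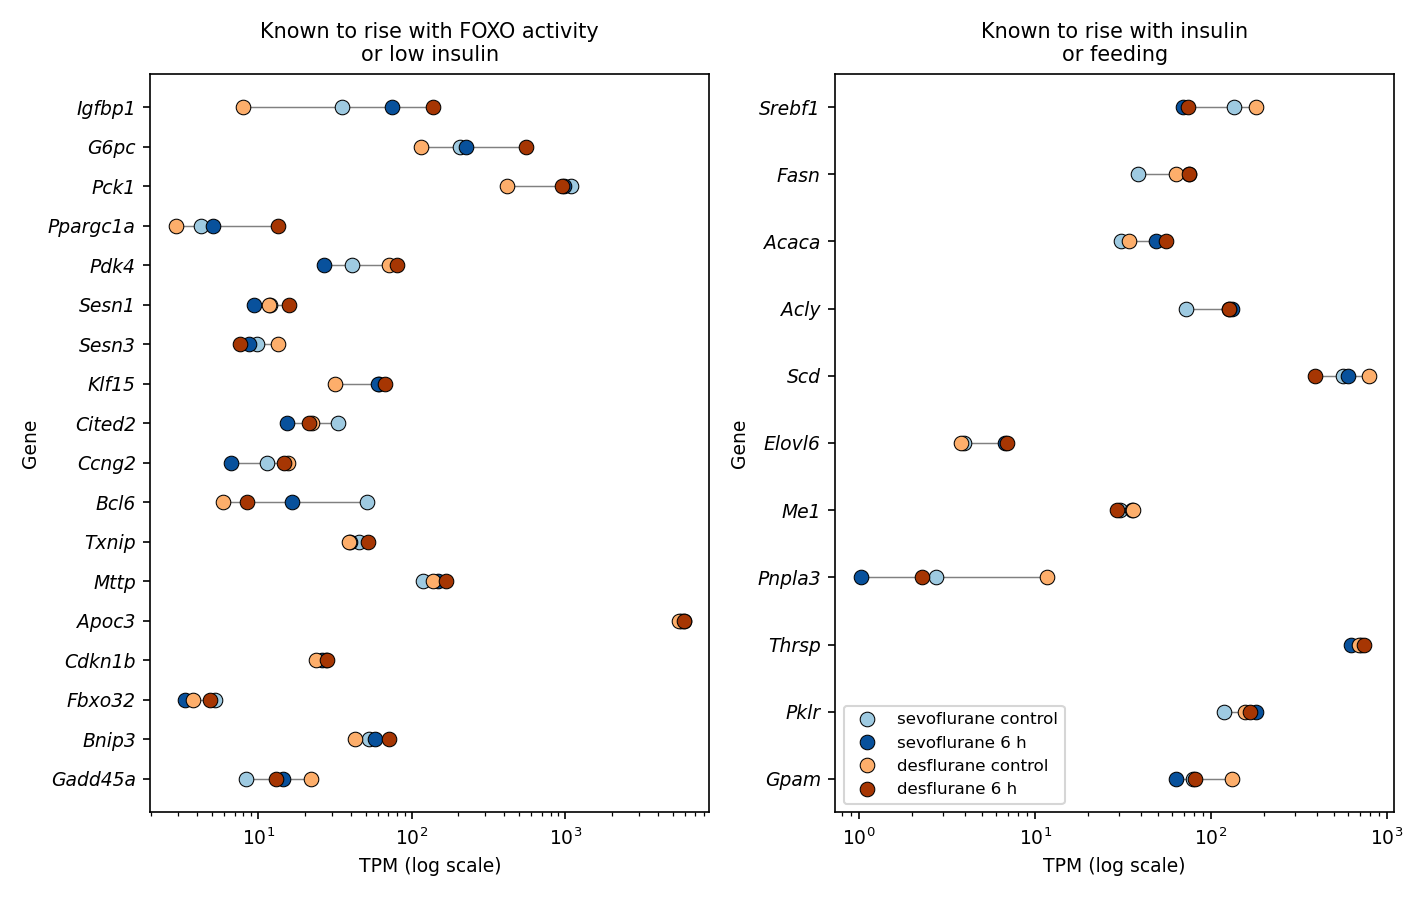
TPM on a log axis (horizontal) of the 18 genes known to rise with FOXO activity or low insulin (left) and of the 11 genes known to rise with insulin or feeding (right), with 1 point per liver and a gray line from the lowest to the highest. The desflurane control (light orange) is at the low end of the range and the 6 hour desflurane liver (brown) at the high end for *Igfbp1*, *G6pc*, and *Ppargc1a*, and the sevoflurane livers (blue) lie between them. The same order holds for *Klf15* and, named after their values were seen, *Bnip3*, *Txnip*, *Cdkn1b*, and *Elovl6*. It is reversed for *Scd* and, named likewise, *Sesn3* and *Me1*.

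Markers of other cells also differed between the livers. The summed TPM of 8 Kupffer cell and macrophage genes, of which *C1qc* was the most abundant, was 625 (control) and 399 (6 hours) with sevoflurane and 485 (control) and 596 (6 hours) with desflurane. All 8 genes were lower with sevoflurane, and 7 were higher with desflurane, than in the respective controls. Against the sevoflurane control, 3 of the 8 genes were higher and 5 were lower with desflurane. The desflurane sum thus lay between those of the controls, and the sevoflurane sum was below both. The sum of 7 T, NK, and B cell genes, led by *Ptprc*, was 24.3, 6.70, 16.0, and 17.4 TPM, with the desflurane liver again between the controls. The endothelial sum, led by *Kdr*, was 181, 168, 176, and 197 TPM. It was above both controls with desflurane and below both with sevoflurane, as were *Insr*, *Irs2*, and *Foxo3*. The stellate cell sum, led by *Col3a1*, was 273, 289, 292, and 303 TPM, and the cholangiocyte sum, led by *Epcam*, was 11.6, 12.5, 16.9, and 11.0 TPM. The part of these cells in the lower *Insr*, *Irs2*, and *Foxo3* with sevoflurane and their higher levels with desflurane was not tested. Pancreatic acinar genes, led by *Ctrb1*, summed to 28.9 TPM in the sevoflurane control and to at most 0.738 TPM in the other libraries. Of the pancreatic islet genes, *Ins1*, *Ins2*, and *Gcg* were listed at 0 in all 4 libraries and *Iapp* was at most 0.0547 TPM, and the summed muscle and adipocyte genes, led by *Fabp4*, were at most 3.69 TPM.

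*Irs2* had the widest range of the 9 genes, with a highest value 2.85-fold its lowest. The genes most like it were taken as those with the smallest Euclidean distance between log2 TPM profiles over the 4 libraries, each centered on its own mean, among 9135 other genes above 2 TPM in all libraries. These were *Pex11a* (distance 0.25), *Qsox1* (0.29), *RT1-CE15* (0.30), *Hps4* (0.31), and *Cirbp* (0.31). *Pex11a*, a peroxisome gene, had TPM values of 10.9, 8.14, 8.29, and 18.4 in the order sevoflurane control, 6 hour sevoflurane, desflurane control, and 6 hour desflurane, and the cold-inducible *Cirbp* had 14.8, 12.6, 14.5, and 28.0. Among the other members, *Insr* was at rank 91 and *Foxo3* at rank 94 (distance 0.59 for both), and *Pik3r1* was the least like it, at rank 8324. A profile over 4 libraries has few degrees of freedom, and these ranks are a description.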

How the data were processed

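Liver RNA from 4 rats was sequenced, 1 for each condition, and groups were taken from the titles of the samples. The authors used sickle 1.33 for trimming (quality 30, length 20), HISAT2 2.1.0 for mapping to the rn6 genome, SAMtools 1.10 for sorting, and StringTie 2.1.2 for quantification on the UCSC refGene gene models. The deposited tables hold FPKM values normalized by StringTie for library size and gene length, an average coverage per gene, which is a signal without normalization, and TPM values scaled so that the assembled rows add up to 1000000, with the annotated rows on the same scale. HISAT2 was run at its defaults. The strand setting of StringTie is not given in the sources used here, and reads of overlapping genes on opposite strands may have been shared. The study methods and the labels name different Illumina kits for total RNA.

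Annotated rows longer than 200 bp were used, and rows sharing a symbol were added together, giving 16992 genes. The calling rule was that of the study, namely a larger TPM value above 2 and a ratio above 2, with no pseudocount. Medians of lists were taken on log2 values with 1 added to each TPM value. Median-of-ratios scaling used genes above 2 TPM in all libraries. The aligned sequence of each library, between 4.47 and 5.40 Gb, was calculated from the FPKM and coverage columns.

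The members and lists were chosen with earlier results of these data known. Of the pathway lists, 2 genes are not reported here and were left out of their counts and medians. Named are all 9 members, the called and the most abundant genes reported of the pathway lists (called with either agent against its own control), the most abundant marker genes, and the 5 genes nearest to *Irs2*. Others are marked, or are members of a ratio or of a list called in another comparison. No test was made. The code that makes the calls was checked on simulated data. Python 3.11.15, numpy 2.4.6, and pandas 2.3.3 were used.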

Additional observations from a re-analysis of the deposited data

Results flagged for a closer look

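In *Insr*, *Irs2*, and *Foxo3* the 6 hour livers of the 2 agents lay on opposite sides of the controls, above both with desflurane and below both with sevoflurane. The log2 changes with sevoflurane against its own control were -0.19, -0.52, and -0.14 in this order. The 9754 genes above 2 TPM in either library had a median absolute log2 change of 0.21, with 1 added to each TPM value. Only *Irs2* exceeded that with sevoflurane. The log2 change with desflurane exceeded that with sevoflurane by 0.79 for *Insr*, 1.78 for *Irs2*, and 0.69 for *Foxo3*, each against its own control. With 1 liver per condition this difference was not tested, and 11.2% of all genes showed the same pattern.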

How the results depend on the processing

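No paired analysis was possible because each condition has 1 library, and for the same reason no replicate could be left out. The count of members called with sevoflurane was 0, and that between the controls 0, under all alternatives. Desflurane called 1 member, *Irs2*, but 2 with a fold limit of 1.5, 0 with a fold limit of 3, and 0 with the control of the other agent. Between the agents at 6 hours, 1 member was called, but 3 with a fold limit of 1.5, 0 with a fold limit of 3, and 2 with the assembled rows, an alternative chosen after seeing the data. TPM limits of 1 and 5, a pseudocount of 1 TPM, FPKM, no length filter, and the single most abundant row left all 4 counts as they were. The median log2 change with sevoflurane was 0.02, and its sign turned with the control of the other agent (-0.069), median-of-ratios scaling (-0.031), FPKM (-0.030), and the mean of the controls (-0.0052). With desflurane it was 0.17, and 0.048 after median-of-ratios scaling, 0.090 with FPKM, and 0.31 with the assembled rows. *Irs2* with desflurane stayed between 0.99 and 1.26 on the log2 scale with these alternatives taken singly. It was 0.88 with the sevoflurane control and median-of-ratios scaling together. For single members, changes of sign with an alternative were limited to *Irs1* and *Akt2* with desflurane and to *Akt2* and *Pik3r1* with sevoflurane. The lack of replicates and of read counts limits all values, and the coverage was lowest for *Irs2*.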
